A study of Mus musculus with 5 samples.

Results

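The Ly6 genes encode small cell surface proteins that are used to sort and to stage blood cells. The members described here are 8 genes taken by symbol, Ly6a, Ly6c1, Ly6c2, Ly6d, Ly6e, Ly6g, Ly6i and Ly6k, and all 8 were found among the 52550 genes of the count table. They were measured in KL cells, the cKit+Sca1-Lin- myeloid progenitors of the bone marrow, from male mice 20 weeks after tamoxifen. BcorΔE9-10 mice (genotype scl-Cre-ERT +; Bcorfl/y) gave 3 libraries and BcorWT mice (scl-Cre-ERT +; Bcorwt/y) gave 2. Both groups carried the Cre recombinase driven by an Scl (Tal1) stem cell enhancer, and both received 1 mg tamoxifen daily on 5 days at an age of 3 to 6 months. In BcorΔE9-10 mice Cre removes 2 exons of Bcor, which leaves a truncated protein in the cells that recombined. Whether each library came from a single mouse or from pooled mice was not given in the sources used here, so p-values measure the spread between these libraries, which may be technical.

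Ly6 proteins hold a compact disulphide-bonded LU domain, and most are tethered to the outer membrane by a glycosylphosphatidylinositol (GPI) anchor. In the mouse many of their genes lie side by side in a cluster that arose by duplication. Ly6a encodes Sca-1, which marks stem cells and multipotent progenitors and is lost on myeloid commitment. Ly6c1 and Ly6c2 encode Ly-6C, which rises as cells become monocytes and neutrophils, and Ly6g encodes Ly-6G, which appears as neutrophils mature.

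These proteins therefore stand on both sides of the sort gate. Marrow was first depleted with a magnetic lineage kit, whose antibodies bind CD5 on T cells, B220 on B cells and plasmacytoid dendritic cells, CD11b, a red cell antigen, the neutrophil antigen 7-4 and Gr-1, the last an antibody that binds Ly-6G and also Ly-6C. Cells were then sorted for Kit and against Sca-1. The gate acts on surface protein, and the libraries hold RNA.

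Total counts ranged from 5998924 to 8303999 per library, and no pair of libraries in a group agreed within sampling noise. Of all genes tested, 10.1% were called, meaning an adjusted p under 0.05 in limma, with 708 higher and 481 lower in BcorΔE9-10. Scaling by library totals alone, in place of the TMM factors used throughout, shifted the median of all log2 fold changes to 0.15 and the calls to 1210 higher and 197 lower. The targeted gene Bcor had 196, 168 and 185 counts in BcorΔE9-10 and 83 and 109 in BcorWT. QuantSeq reads the 3′ end of the transcript, outside the exons that Cre removes, so these counts are no check of the genotype.

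The 8 genes lie within 397071 bases of chromosome 15 in the mm10 build, at 15:74762056 to 15:75159126, and all are annotated as protein coding. Ly6e and Ly6g are on the plus strand and the other 6 on the minus strand. Ly6g, at the high-coordinate edge, spans 75155240 to 75159126 with 942 bases of exon, Ly6c2 spans 75108158 to 75111970 with 2740, and Ly6c1 spans 75044018 to 75048830 with 1677. Ly6a spans 74994877 to 74998031, Ly6i 74979534 to 74983430, Ly6e 74955051 to 74959905, Ly6k 74796874 to 74799986 and Ly6d 74762056 to 74763620. Ly6k overlaps Gm17189 on the other strand, which had no count in any library.

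The promoters are shown because the 3 genes that held most of the Ly6 counts, Ly6c2, Ly6g and Ly6c1, lie close together and can be compared by letter. Windows of 300 bases, 250 before the RefSeq start to 50 after it, were matched by symbol for 3 of the 8 members in GRCm38.p6, at chr15:75155011-75155310 (plus strand) for Ly6g, chr15:75111922-75112221 (minus) for Ly6c2 and chr15:75048788-75049087 (minus) for Ly6c1. Capitals mark TATAAA and GAGGAAGT, the latter a run of letters that Ets-family factors such as PU.1 are known to bind.
Ly6g: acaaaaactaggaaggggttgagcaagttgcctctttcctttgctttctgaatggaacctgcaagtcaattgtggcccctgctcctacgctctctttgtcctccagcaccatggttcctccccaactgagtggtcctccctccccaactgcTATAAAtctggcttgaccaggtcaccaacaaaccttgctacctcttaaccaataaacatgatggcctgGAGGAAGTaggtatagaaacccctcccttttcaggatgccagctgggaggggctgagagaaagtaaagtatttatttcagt
Ly6c2: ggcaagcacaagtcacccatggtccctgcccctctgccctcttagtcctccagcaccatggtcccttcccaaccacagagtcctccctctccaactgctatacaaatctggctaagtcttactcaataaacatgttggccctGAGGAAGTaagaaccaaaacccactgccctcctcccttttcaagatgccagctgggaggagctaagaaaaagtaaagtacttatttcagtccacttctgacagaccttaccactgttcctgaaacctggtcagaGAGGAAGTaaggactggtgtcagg
Ly6c1: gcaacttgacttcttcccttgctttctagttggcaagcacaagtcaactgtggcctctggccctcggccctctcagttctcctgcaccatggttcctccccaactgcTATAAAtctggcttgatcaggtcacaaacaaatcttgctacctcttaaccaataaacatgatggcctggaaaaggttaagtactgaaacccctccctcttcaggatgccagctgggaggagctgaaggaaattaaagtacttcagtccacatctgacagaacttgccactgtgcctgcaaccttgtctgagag

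Among these windows, GAGGAAGT occurred once in Ly6g, starting at position -31 from the start site, and at -108 and 27 in Ly6c2, and had no match in Ly6c1. Of 27025 promoter windows of the same length, 3.28% held it on either strand. TATAAA started at -99 in Ly6g and at -143 in Ly6c1, with no match in Ly6c2, and 14.2% of all windows held it. The C/EBP-type letters TTGCNNAA occurred in Ly6g, at -232 on the opposite strand, and in 10.8% of all windows. The STAT-type letters TTCNNNGAA and an interferon response-type motif (GAAA, any 2 bases, GAAA), held by 8.47% and 3.49% of all windows, had no match in the 3 windows, and no matches of different motifs overlapped. In a global alignment 63.6% of columns were identical between Ly6g and Ly6c1, 62.9% between Ly6c2 and Ly6c1 and 49.2% between Ly6g and Ly6c2. A match is a description of letters and not a binding site.

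The members spanned a wide range of levels. CPM values here are counts per 1000000 of the TMM-scaled library total, and dividing the mean CPM of the 5 libraries by the kilobases of exon gave 392 CPM per kb for Ly6c2, 329 for Ly6g, 93.0 for Ly6c1, 20.4 for Ly6e, 5.46 for Ly6d, 0.734 for Ly6i, 0.65 for Ly6a and 0.282 for Ly6k. Because the library method reads transcript ends, the undivided CPM may be the closer measure, and the order was the same by both. Over the 5 libraries Ly6c2 ranged from 920 to 1247 CPM, Ly6g from 208 to 570, Ly6c1 from 135 to 174, Ly6e from 73.8 to 80.0 and Ly6d from 1.33 to 6.67, so none of these neighbours in the order overlapped. Ly6d and Ly6i met at 1.33 CPM, in BcorWT library 2. Ly6i and Ly6a, with 30 and 29 counts over all 5 libraries, did not differ beyond their spread. Ly6k, with 9 counts, overlapped Ly6a, at 0 to 0.591 CPM against 0.445 to 1.14 CPM.

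**Figure D1:**
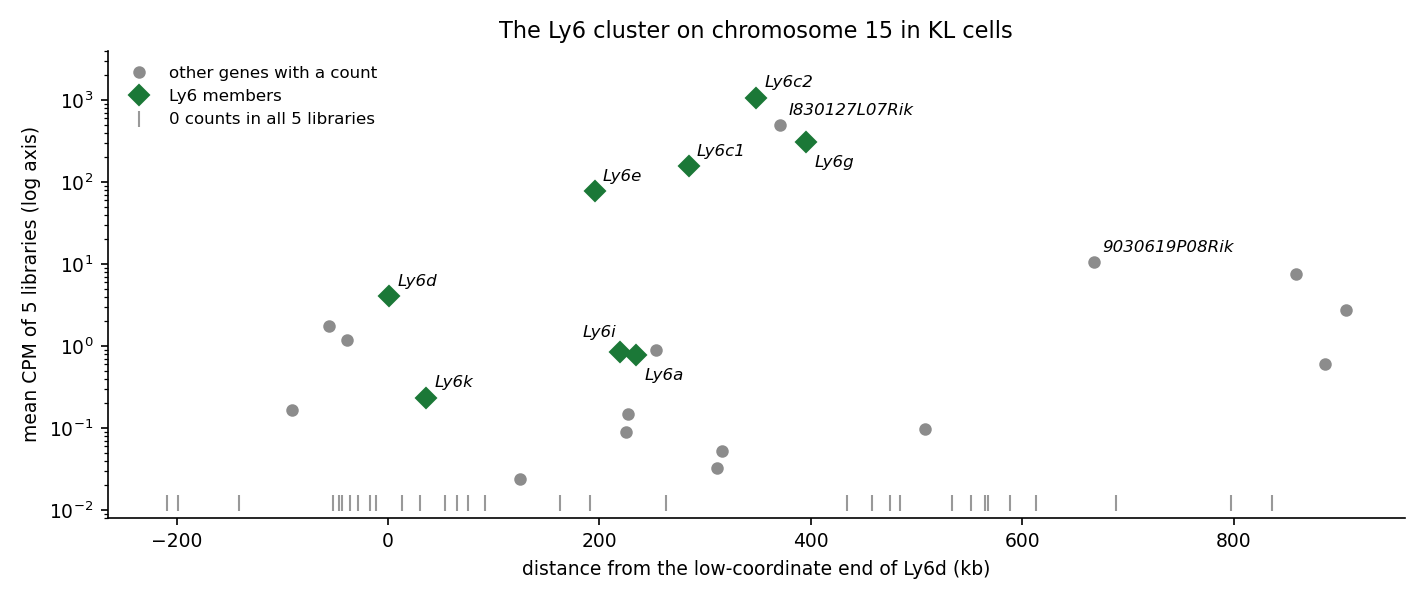
Mean CPM over the 5 libraries (log axis) of every gene of the count table in and 500 kb around the Ly6 cluster, against the distance in kb of the gene's middle from the low-coordinate end of Ly6d. Green diamonds are the 8 members, grey points other genes with a count and ticks genes with 0 counts in all 5 libraries; Ly6c2, I830127L07Rik, Ly6g, Ly6c1 and Ly6e are the highest.

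The Ly6 signal of KL cells was that of myeloid maturation markers and not of Sca-1. In BcorΔE9-10, 8, 7 and 7 reads were counted for Ly6a, and in BcorWT 4 and 3, against 6169 to 8652 for Ly6c2. The Sca-1 transcript was thus near the limit of detection in both groups of these cells, which had been sorted against the Sca-1 protein. Kit, the receptor the gate selects for and a defining marker of the labelled myeloid progenitors, had 452, 307 and 423 counts in BcorΔE9-10 and 128 and 132 in BcorWT. Every BcorΔE9-10 library had more Kit counts than any BcorWT library. Ly6g, whose protein the lineage antibodies bind, outnumbered Kit in all 5 libraries, with 23.4, 24.1 and 22.3 Kit counts per 100 Ly6g counts in BcorΔE9-10 and 3.19 and 6.10 in BcorWT.

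Of the 5 members that passed the filter on low counts, 2 were called, Ly6g and Ly6c2, both lower in BcorΔE9-10. This compares with 10.1% of all genes tested called in either direction and 4.09% called lower. Ly6c1, Ly6e and Ly6d were tested and not called. Ly6a, Ly6i and Ly6k did not pass the filter. In CPM, 3 of the 5 tested members (Ly6g, Ly6c2 and Ly6c1) were lower in every BcorΔE9-10 library than in every BcorWT library, which was so for 20.3% of all genes tested. The median log2 fold change of the 5 was that of Ly6c1, -0.25, against 0.0043 over all genes tested. In bulk RNA, fewer cells of a type and less RNA per cell cannot be told apart.

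**Figure D2:**
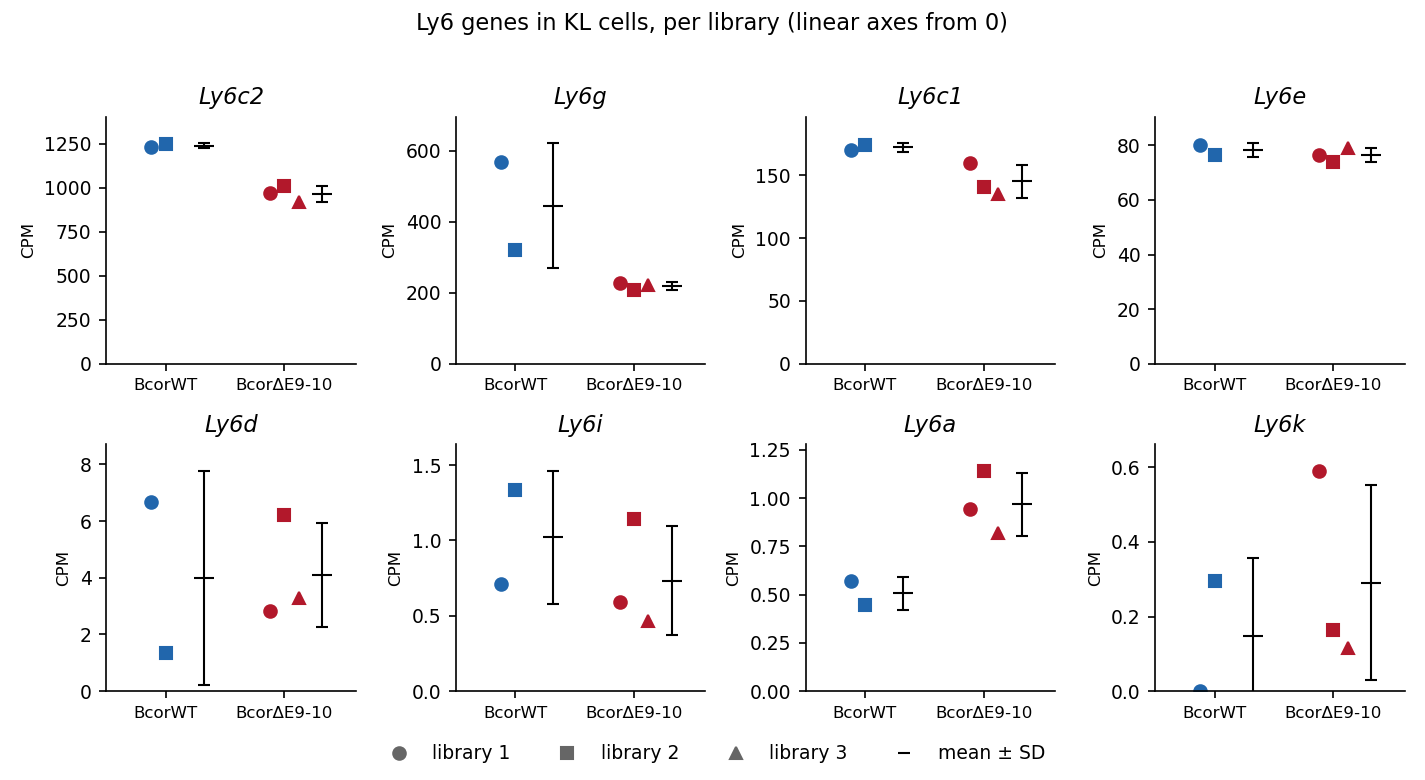
CPM of each of the 8 members per library, on linear axes that start at 0; blue points are the 2 BcorWT and red points the 3 BcorΔE9-10 libraries, and the black bar is the group mean ± SD. Ly6g and Ly6c2 sit lower in all 3 BcorΔE9-10 libraries, BcorWT library 1 holds the highest Ly6g value at 570 CPM, and Ly6i, Ly6a and Ly6k stay at or below 1.33 CPM.

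Ly6g, the neutrophil antigen Ly-6G, showed the largest difference of the 5 tested members. Its level was 228, 208 and 222 CPM in BcorΔE9-10 and 570 and 321 CPM in BcorWT. The groups did not overlap, and the BcorWT libraries lay further from each other than BcorWT library 2 lay from the BcorΔE9-10 group. The means were 219 ± 10.5 (SD, n = 3) and 445 ± 176 (SD, n = 2). On the log2 scale the difference was -0.97 (SE 0.17, 95% interval -1.32 to -0.61) with an adjusted p of 0.00204 in limma with Benjamini-Hochberg adjustment, or 1.95-fold lower. Its size depended on BcorWT library 1. Without that library the log2 fold change was -0.55 (adjusted p 0.0146 in limma), and without BcorWT library 2 it was -1.37.

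Ly6c2, which encodes Ly-6C and was the most abundant member, was modestly lower. It reached 967, 1007 and 920 CPM in BcorΔE9-10 and 1229 and 1247 CPM in BcorWT. The groups did not overlap and each was tight, at 964 ± 43.6 (SD, n = 3) and 1238 ± 13 (SD, n = 2). The log2 fold change was -0.36 (SE 0.087, 95% interval -0.55 to -0.18; adjusted p 0.0148 in limma), or 1.29-fold lower. With library totals alone it was -0.22 and not called (adjusted p 0.0966 in limma), which is -0.37 relative to the median of all genes at that scaling. The call was also lost without BcorΔE9-10 library 1 or 3 or either BcorWT library, at limma adjusted p values from 0.0523 to 0.0634.

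Ly6c1, the second Ly-6C gene, showed a smaller difference that was not called. Its counts gave 160, 141 and 135 CPM in BcorΔE9-10 and 170 and 174 CPM in BcorWT. The groups did not overlap, although BcorΔE9-10 library 1 lay close to BcorWT library 1. The log2 fold change was -0.25 (SE 0.12, 95% interval -0.50 to -0.0016; adjusted p 0.194 in limma), from means of 145 ± 12.8 (SD, n = 3) and 172 ± 3.23 (SD, n = 2). There were 16.5, 14.0 and 14.7 Ly6c1 counts per 100 Ly6c2 counts in BcorΔE9-10 and 13.8 and 14.0 in BcorWT, so the proportion of the pair stayed within a narrow range in the 5 libraries.

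The Ly6c genes share much sequence where the reads fall, so their split is uncertain. Among the runs of 30 bases in the last 300 bases of the annotated transcripts, 51.6% of those of Ly6c2 and 46.6% of those of Ly6c1 occurred in the transcripts of another gene. For the low members Ly6a and Ly6i this share was 30.8% and 23.1%. Ly6g ends were more distinct, at 10.7% shared, Ly6e shared 1.17%, and Ly6d and Ly6k shared none. How the authors' counting treated reads that fit several genes is not given in the sources used here. Counted as 1 gene, Ly6c1 and Ly6c2 together gave a log2 fold change of -0.35 (adjusted p 0.0172 in limma), with most of the summed counts from Ly6c2.

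Ly6e and Ly6d did not differ beyond their spread. Ly6e, a broadly expressed and interferon-inducible member, varied little, at 76.2, 73.8 and 78.9 CPM in BcorΔE9-10 and 80.0 and 76.5 CPM in BcorWT. The groups overlapped, and the log2 fold change was -0.03 (95% interval -0.30 to 0.23; adjusted p 0.902 in limma); its sign turned to 0.11 with library totals alone. Ly6d, a marker of B-lineage priming in lymphoid progenitors, had 24, 38 and 28 counts in BcorΔE9-10 and 47 and 9 in BcorWT. The highest and the lowest value were the 2 BcorWT libraries, so the log2 fold change of 0.26 (95% interval -0.93 to 1.45; adjusted p 0.820 in limma) became -0.85 when BcorWT library 2 was left out and 1.41 when library 1 was. A list of 14 B cell genes summed to 18.9, 35.7 and 29.5 CPM in BcorΔE9-10 and 22.3 and 9.34 in BcorWT, lowest in BcorWT library 2 as Ly6d was but not highest in BcorWT library 1, where Ly6d was, with Ms4a1 at 0 in every library. Of the 7 that were tested limma called 0, as did edgeR and DESeq2, with 2 at an unadjusted p under 0.05. On the log2 scale 6 of the 7 were higher in BcorΔE9-10 and 1 was lower, and the list median was 1.498. The part of the B cell genes in the Ly6d values was not tested. B220 antibodies of the lineage kit bind B cells.

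Ly6a, Ly6i and Ly6k, under the filter, were measured by a few reads per library. In CPM, Ly6a was 0.946, 1.14 and 0.818 in BcorΔE9-10 and 0.568 and 0.445 in BcorWT. Every BcorΔE9-10 library was above every BcorWT library, which was also so for 21.5% of genes with 15 or more counts, and the exact two-sided permutation p was 0.2, the smallest that 3 against 2 libraries allow. The exact 95% intervals of counting overlapped, running from 0.416 to 1.90 CPM of the unscaled library total in BcorΔE9-10 library 1 and from 0.144 to 1.35 in BcorWT library 1. In a limma fit with no filter on low counts, in which 6.65% of genes were called, Ly6a had a log2 fold change of 0.82 (95% interval -0.89 to 2.52; adjusted p 0.682). Per 1000 Kit counts there were 17.7, 22.8 and 16.6 Ly6a counts in BcorΔE9-10 and 31.3 and 22.7 in BcorWT, and these values overlapped.

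Ly6i had 5, 7 and 4 counts in BcorΔE9-10 and 5 and 9 in BcorWT, with overlapping groups. Ly6k, known from testis and sperm, had 5, 1 and 1 counts against 0 and 2. The 0 counts of Ly6k in BcorWT library 1 allow up to 3 counts, or 0.396 CPM of its unscaled total, as a one-sided limit. The exact two-sided 95% interval of this count reached 0.487 CPM. Without the filter their limma adjusted p values were 0.784 and 0.693, so no difference was detectable at this depth. Intervals and limits for single libraries cover counting error only.

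**Figure D3:**
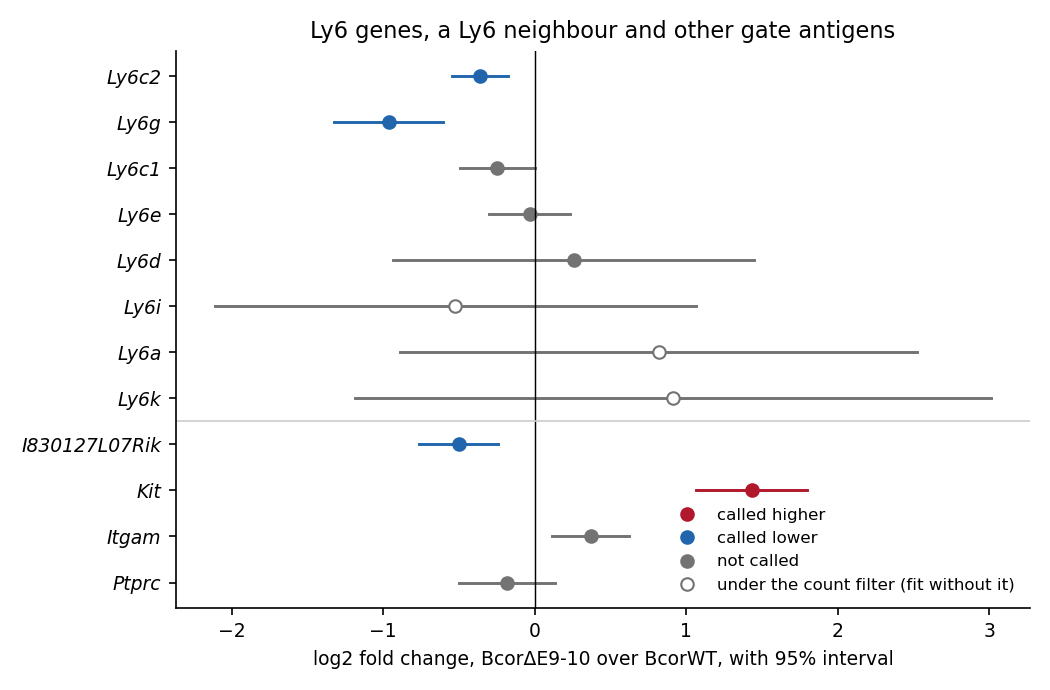
Log2 fold change of BcorΔE9-10 over BcorWT with its 95% interval from limma for the 8 members (above the line), and for I830127L07Rik and 3 antigens of the gate (below it); open circles are genes under the count filter, fitted without it. The intervals of Ly6g and Ly6c2 lie below 0, that of Kit lies above 1, and those of Ly6i, Ly6a and Ly6k are the widest.

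Within a library, Ly6g was set against Ly6c2, a ratio of counts that needs no scaling. There were 23.6, 20.6 and 24.1 Ly6g counts per 100 Ly6c2 counts in BcorΔE9-10 and 46.4 and 25.7 in BcorWT. The ratio was lower in all 3 BcorΔE9-10 libraries, though BcorWT library 2 lay close to BcorΔE9-10 library 3, and no exact test of 3 against 2 libraries can fall below 0.2. Ly6g made up 15.9%, 14.4% and 16.3% of the counts of the 8 members in BcorΔE9-10 and 27.7% and 17.6% in BcorWT. Ly6c2 made up 67.4%, 70.0% and 67.6% in BcorΔE9-10 and 59.8% and 68.5% in BcorWT.

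Among markers of maturing neutrophils, the cells that bear Ly-6G, many were also lower. All 20 genes of the list were tested and 10 were called, each lower in BcorΔE9-10 (8 without BcorWT library 1), with a median log2 fold change of -0.56 over the list and 3 values above 0. Among them S100a8, a calcium-binding alarmin of neutrophils, fell by 0.61 on the log2 scale (adjusted p 7.95e-05 in limma), the granule protein gene Ltf fell by 0.81 (adjusted p 7.34e-05 in limma) and Cd177, a neutrophil surface antigen, fell by 0.64 (adjusted p 0.00117 in limma). The 3 values above 0 were those of Camp (0.25, adjusted p 0.114 in limma), Fcnb (0.037) and Csf3r (0.0085). With library totals alone, with no filter on low counts or with the replicate block, 1 gene of the list was called higher. The list summed to 158600 to 183700 CPM in the BcorΔE9-10 libraries and 229900 to 241600 in the BcorWT libraries, with no marker at 0 in all libraries. Their part in the Ly6g and Ly6c2 differences was not tested.

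Ly6g and Ly6c2 were also set against S100a8, the most abundant gene of that list. Per 1000 S100a8 counts there were 2.83, 2.76 and 3.25 Ly6g counts in BcorΔE9-10 and 4.86 and 2.92 in BcorWT, which overlapped. For Ly6c2 there were 12.0, 13.4 and 13.5 per 1000 S100a8 counts in BcorΔE9-10 and 10.5 and 11.4 in BcorWT. This ratio was higher in every BcorΔE9-10 library than in either BcorWT library, at an exact two-sided permutation p of 0.2. No smaller p is possible with 3 against 2 libraries, and S100a8, the denominator, was itself called lower. The log2 fold change of S100a8 was -0.57 without BcorWT library 1 and -0.65 without BcorWT library 2, where that of Ly6g was -0.55 and -1.37.

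**Figure D4:**
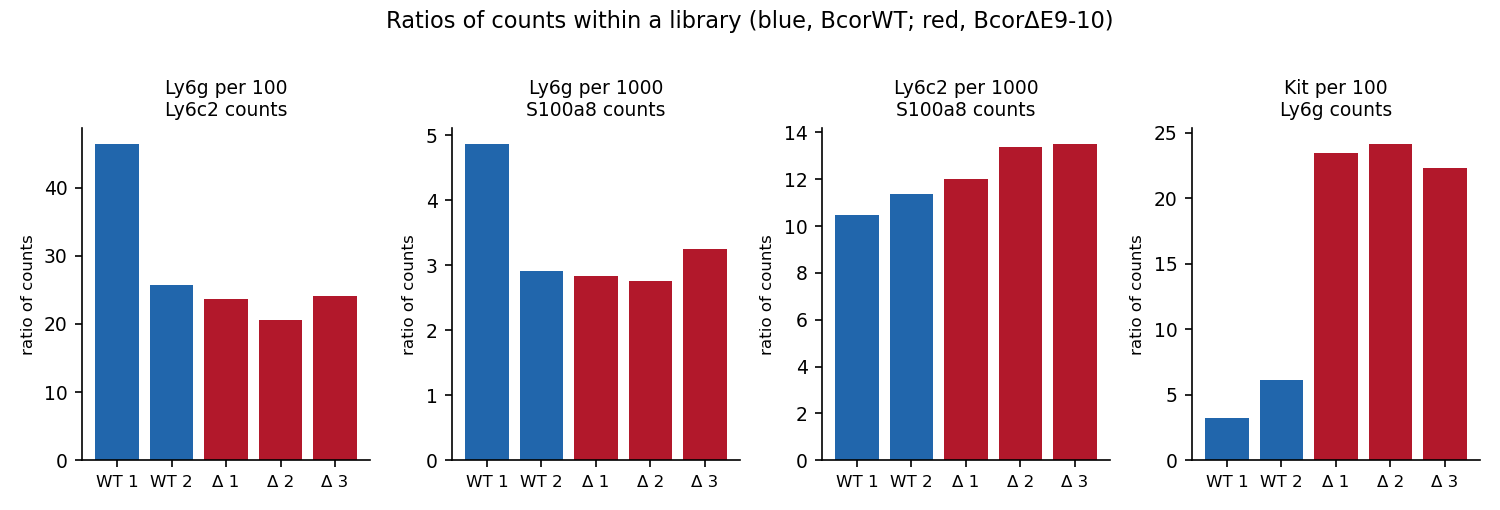
Ratios of counts within each library, with BcorWT in blue and BcorΔE9-10 (Δ) in red and bars from 0: Ly6g per 100 Ly6c2, Ly6g per 1000 S100a8, Ly6c2 per 1000 S100a8 and Kit per 100 Ly6g counts. BcorWT library 1 is highest in both Ly6g ratios, at 46.4 and 4.86, and the Kit ratio is 22.3 to 24.1 in BcorΔE9-10 against 3.19 and 6.10 in BcorWT.

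Among the other antigens of the gate, Kit was called higher, and Itgam and Ptprc were tested and not called. Kit was 2.70-fold higher in BcorΔE9-10, at 51.0 ± 2.14 CPM (SD, n = 3) against 18.9 ± 0.977 (SD, n = 2), with a log2 fold change of 1.43 (SE 0.17; adjusted p 9.82e-05 in limma). Itgam, which encodes the lineage antigen CD11b, was 120, 122 and 132 CPM in BcorΔE9-10 and 96.4 and 96.5 CPM in BcorWT, a log2 fold change of 0.37 that was not called (adjusted p 0.0618 in limma). It was called with library totals alone (0.51) and was 0.10 with a GC trend removed (adjusted p 0.644 in limma). Ptprc, which encodes CD45 and its B220 form, differed by -0.18 (adjusted p 0.474 in limma). Cd5 had 4, 0 and 1 counts against 0 and 0. Each 0 count of Cd5 allows up to 3 counts in that library.

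I830127L07Rik, named Ly6a2 in RefSeq and annotated as a pseudogene, lies between Ly6c2 and Ly6g at 15:75131377 to 15:75135128 and had a level between theirs. The next highest neighbour, 9030619P08Rik, had 100, 84 and 92 counts in BcorΔE9-10 and 69 and 45 in BcorWT. I830127L07Rik had 415, 453 and 392 CPM in BcorΔE9-10 and 697 and 504 CPM in BcorWT, and the groups did not overlap. BcorWT library 1 was highest, as for Ly6g. The log2 fold change was -0.50 (SE 0.12; adjusted p 0.0171 in limma), and it was -0.27 and not called without BcorWT library 1. Its call was also lost without BcorΔE9-10 library 1 or 3 and with library totals alone. Its promoter window was 95.4% identical to that of Ly6c2. Of the runs of 30 bases at its transcript ends, 33.9% occurred in some other gene, and 8.12% in Ly6c2. Of those of Ly6c2, 7.91% occurred in I830127L07Rik, so the counts of the pair may hold some reads of each other.

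Most other genes of the cluster and of the family had no counts. Of 47 neighbours in and 500 kb around it, 32 had no count in any library, 6 were tested and 1, I830127L07Rik, was called. Of 36 other genes with an LU domain, 34 were found, 22 had no count and 4 were tested. Plaur, which encodes the urokinase receptor and lies on chromosome 7, was the highest of those tested outside the cluster, at 43.2 ± 5.40 CPM (SD, n = 3) in BcorΔE9-10 and 46.1 ± 19.7 (SD, n = 2) in BcorWT. It was not called (adjusted p 0.920 in limma).

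The genes that build the GPI anchor, which most Ly6 proteins need to reach the surface, were listed next. Of 30 listed, 29 were found and 26 tested, and limma and edgeR called 0 of them and DESeq2 called 1. The log2 fold change was below 0 for 17 of the 26 and above 0 for 9, with a median of -0.11. Gpaa1, a subunit of the transamidase that attaches the anchor, had a log2 fold change of -0.41 (adjusted p 0.0583 in limma) and was the gene that DESeq2 called. With DESeq2's size factors, and in 3 of the 5 fits without a library, limma called 1 gene of the list. Interferon-stimulated genes were listed because interferon induces Ly6a and Ly6e. Of 32, all were found, 19 were tested and 3 were called lower, Oas1a (log2 fold change -2.21), Oas3 (-1.90) and Ifitm3 (-1.02). Of the 19, 6 had a log2 fold change above 0 and 13 below, with a median of -0.38. Without BcorΔE9-10 library 3, 1 was called. The Oas1a call was lost without any 1 of the BcorΔE9-10 libraries, without BcorWT library 2, with library totals alone and with a GC trend removed, and its value ran from -2.94 to -1.48 in the fits without a library. The Oas3 call was lost without BcorΔE9-10 library 3 or BcorWT library 1. The list summed to 178 to 200 CPM in BcorΔE9-10 and 282 and 286 CPM in BcorWT. Ifitm3 alone held 67.8 ± 10.8 CPM (SD, n = 3) in BcorΔE9-10 and 136 ± 0.816 (SD, n = 2) in BcorWT. Oas1a and Oas3 encode antiviral synthetases and Ifitm3 a membrane protein that restricts virus entry. Ly6e, in contrast, was at -0.03, and the difference between it and these genes was not tested.

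Markers of the stem cell stages that bear Sca-1 were examined next to Ly6a. Of 18 listed genes of stem cells and multipotent progenitors 9 were tested and 1 was called (11.1%, against 10.1% of all genes tested). This was Cd48, called higher with a log2 fold change of 1.36 (adjusted p 0.0184 in limma). It was no longer called without either BcorWT library. The list summed to 84.4 to 113 CPM in BcorΔE9-10 and to 79.1 and 90.9 CPM in BcorWT, with Fgd5 at 0 in all libraries. Of 15 monocyte genes, which often accompany Ly-6C, 14 were tested and 1, Mpeg1, was called higher (log2 fold change 0.62, lost without BcorWT library 1 or BcorΔE9-10 library 2 or 3). The share called was 7.14%, against 10.1% of all genes tested. Of the 14, 11 had a log2 fold change below 0 with a median of -0.17. The list summed to 383 to 444 CPM in BcorΔE9-10 and 435 and 453 in BcorWT. Irf8, a regulator of monocyte fate, had a log2 fold change of -0.04.

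Markers of other cell types known to express Ly6 proteins were also counted. Limma called 1 plasmacytoid dendritic cell gene (20% of those tested) and 1 endothelial gene (25%), against 10.1% of all genes tested. Of 11 plasmacytoid dendritic cell genes 5 were tested and 1, Runx2, was called higher (log2 fold change 1.04, lost without either BcorWT library and with a GC trend removed), and the list summed to 65.8 to 68.2 CPM in BcorΔE9-10 and to 39.4 and 49.4 in BcorWT, with Klk1 at 0. Of 11 T cell genes 4 were tested and limma called 0, with 1 at an unadjusted p under 0.05 that edgeR and DESeq2 called (Lck). Of the 4, 3 were higher in BcorΔE9-10 and 1 was lower, and the middle of their log2 values lay at 0.9286. The T cell list summed to 8.51 to 11.7 CPM in BcorΔE9-10 and to 9.80 and 3.11 in BcorWT, with Cd8b1 at 0. Of 10 endothelial genes 4 were tested and 1, Tie1, was called lower (log2 fold change -2.11, adjusted p 0.0499 in limma), and with sums of 36.9 to 42.8 and of 50.8 and 52.4 CPM and Stab2 at 0. The Tie1 call was lost with DESeq2, library totals alone, sample quality weights or a GC trend removed, and in 4 of the 5 fits without a library. The CD5 and B220 antibodies of the lineage kit would remove T cells and many plasmacytoid dendritic cells, and the part of these cells in the Ly6 values was not tested.

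**Figure D5:**
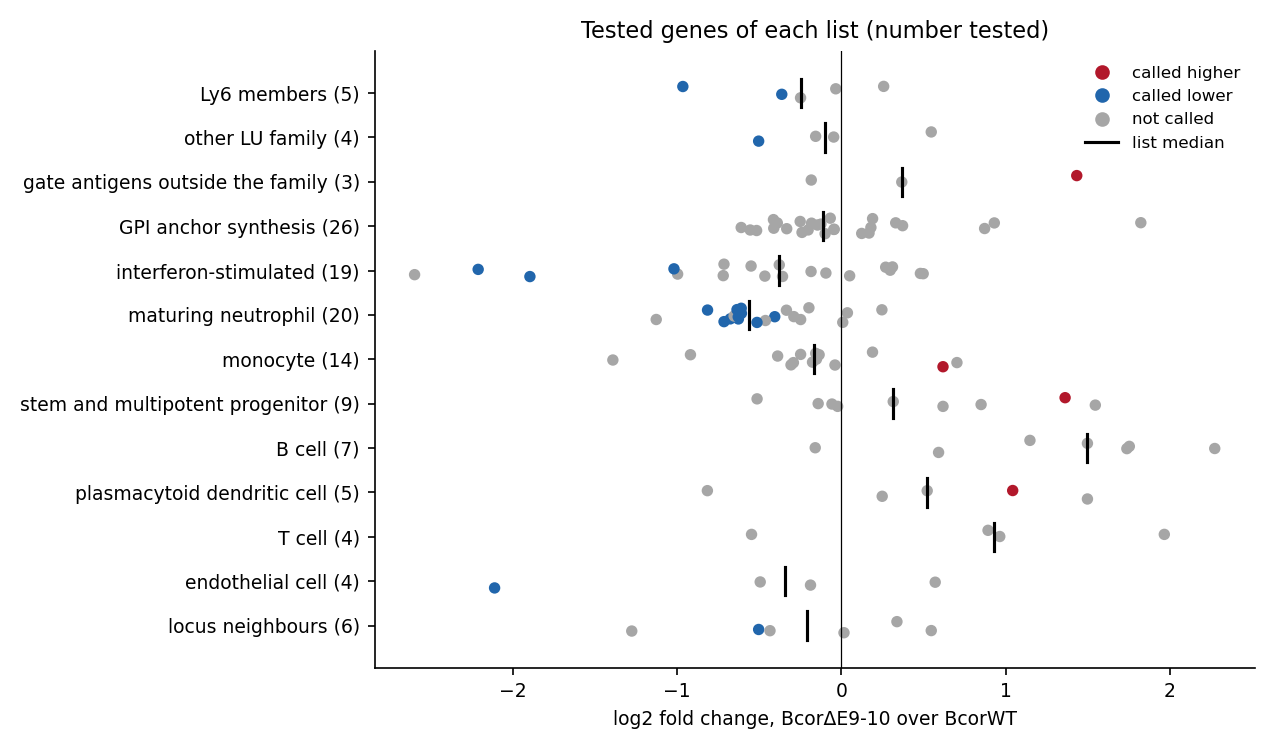
Log2 fold change of BcorΔE9-10 over BcorWT for every tested gene of the Ly6 members and of each list, with the number tested in brackets; blue points were called lower, red points called higher, grey points not called, and black bars mark the list median. The maturing neutrophil list holds 10 of the blue points, and its median of -0.56 is the lowest.

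The genes nearest in pattern were sought among 6821 named genes (mean log2 CPM 3 or more), by the root mean square distance between log2 CPM values centred over the 5 libraries. For Ly6g they were Mcpt8, a basophil protease (distance 0.10), Clec4e, a myeloid lectin receptor (0.11), and Camta2 (0.12). For Ly6c2 they were Dpp3 (0.0094), Prune1 (0.020) and Usp4 (0.024). For Ly6a they were Ccdc47 (0.057), Dnajb9 (0.073) and Pan2 (0.074), a likeness that rests on its 29 counts. Each distance is over 5 libraries.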

How the data were processed

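KL cells of 3 BcorΔE9-10 and 2 BcorWT samples were profiled by QuantSeq 3′ RNA-seq. The authors trimmed reads (cutadapt), aligned them to mm10 with HISAT2 and counted them per gene with featureCounts (Subread 1.5.0-p3, per the submitters' processing notes), and the deposited values are raw counts, not normalised. Options for strand and for reads fitting several genes are not given in the sources used here. Groups came from sample titles, and columns were matched through sample descriptions.

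Genes were filtered with filterByExpr of edgeR 4.0.16 (minimum count 10, minimum total 15), which left 11766, and tested with limma 3.58.1 on voom values with TMM factors in R 4.3.3, two-sided, with Benjamini-Hochberg adjustment over all genes. The code was tested on simulated counts. Alternatives were edgeR's quasi-likelihood test, DESeq2 1.42.0, other scalings and filters, sample weights, a replicate block, each library left out, and summed paralogs. The members and lists were chosen with earlier results of these data known. The genes named were the members, gate antigens, Bcor, the 2 most abundant and up to 4 called genes per list, and the 3 nearest in pattern to Ly6a, Ly6c2 and Ly6g. The text gives values for part of these, and 2 others are not reported here. Promoters came from RefSeq (GRCm38.p6).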

Additional observations from a re-analysis of the deposited data

How the results depend on the processing

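Ly6g stayed called in every alternative run, with log2 fold changes from -1.37 to -0.55 when a library was left out and -0.999 with the replicate block. Ly6c2 was -0.22 and not called with library totals alone, and -0.39 to -0.34 with a library left out, and the count of called members was then 1 in place of 2, as it was in 4 of the 5 fits without a library (range 1 to 2). With the replicate block 1454 genes and 2 members were called, and it changed no member's call; same-numbered libraries deviated together only weakly (correlations 0.07 and 0.076), so the numbers were not taken as pairs. Ly6c1 was called only when summed with Ly6c2 (-0.35), with Ly6a, Ly6c2, Ly6g and Ly6i (-0.48), or with Ly6c2 and I830127L07Rik (-0.40, chosen after seeing the data). Ly6e reversed to 0.11 with library totals alone and to 0.047 with a GC trend removed, also chosen after seeing the data, and Ly6d ranged from -0.85 to 1.41 with a library left out, and was -0.012 without BcorΔE9-10 replicate 2. With a library left out, all genes called ranged from 558, without BcorWT replicate 1, to 1200, against 1189, and list genes called from 10 to 23, against 18 (26 with the replicate block, 3 of them GPI anchor genes against 0, and Tie1 no longer among them). Gate antigens called were 2 with library totals alone (Kit and Itgam), against 1.

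Of the other genes named, these also changed sign: with library totals alone Plaur (0.096), Irf8 (0.11) and Cd34 (0.125); with the replicate block Irf8 (0.0093) and Cd34 (0.10); and with a library left out Plaur (range -0.49 to 0.40), Ptprc (-0.39 to 0.032), Irf8 (-0.12 to 0.043), Cd34 (-0.12 to 0.096) and Cd3d (-1.17 to 0.096). Over 34 such genes, 472 comparisons gave 410 with the same direction and call, 39 that lost and 10 that gained a call, and 13 reversals; the cause was not tested. Fits that leave 1 BcorWT library assume that it varies like the others. Depth limits Ly6a, Ly6i and Ly6k, at 29, 30 and 9 counts in all.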
